A study of Mus musculus with 24 samples.

Results

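Malat1 and Neat1, the 2 long noncoding RNAs best known for staying in the nucleus, were followed through a microRNA pulldown experiment in mouse fibroblasts. They were found by their gene symbols and make up 2 of the 13534 genes in the whole-cell count table and 2 of the 11568 genes in the table of nuclear and cytoplasmic fractions. Both passed the filters on low counts. The study asked which RNAs a miR-29b mimic captures in these cells, and each RNA was counted before capture (input) and after it (pulldown).

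Malat1 is an abundant, largely unspliced RNA that concentrates in nuclear speckles, which are stores of splicing factors. Its 3′ end is not made by ordinary polyadenylation: RNase P cuts the primary transcript, releases the small RNA Mascrna and leaves a triple-helical tail. Neat1 is the architectural RNA of paraspeckles, nuclear bodies in which proteins such as Nono and Sfpq gather on its long isoform. Its short isoform ends at a polyadenylation site inside the gene, and the long isoform ends in the same way as Malat1. MicroRNAs act with Argonaute proteins mainly in the cytoplasm, where they pair through their seed with target RNAs.

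The cells were NIH3T3, an established line of mouse embryonic fibroblasts, transfected in reverse with 1 of 2 mimics at 10 nM. One mimic had the miR-29b sequence and the other was scrambled (scram in the labels), and both carried CNVK, a 3-cyanovinylcarbazole nucleoside that joins to the opposite strand under light. Every library therefore came from cells that had received a crosslinkable mimic, and none came from untransfected cells. Medium was added after 24 h and cells were collected 8 h later. The 16 whole-cell libraries, so called here because their labels name no fraction, were input and pulldown for either mimic, in 4 replicates each. By the authors' deposited table, described below, replicates 1 to 3 were a lysed set and replicate 4 an intact set. Each group of 4 therefore mixes both sets. The 8 fraction libraries covered the same 4 conditions once in the nuclear and once in the cytoplasmic fraction. Each library used 5 ng of RNA, save for 6 ng in the fourth miR-29b input, and was primed with random hexamers and oligo-dT, so RNAs without a poly(A) tail could also be read. The labels do not say whether libraries of a group were separate cultures. A p-value here weighs only the variation among these libraries, and that may be technical.

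The microRNA is shown because its seed, bases 2 to 8 in capitals, is the stretch through which a microRNA mainly pairs with its targets. RefSeq gives the same mature sequence for the loci Mir29b-2 (chromosome 1, 195037091 to 195037113, plus strand, GRCm38.p6) and Mir29b-1 (chromosome 6, 31063025 to 31063047, minus strand).
mmu-miR-29b-3p: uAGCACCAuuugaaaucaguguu
The seed's complement reads UGGUGCU. The sequence of the scrambled mimic and the sequences of both long RNAs were not used here, so sites within Malat1 and Neat1 were not searched. The authors' deposited table carries 10 kinds of mark per gene, among them pulldown calls and predicted miR-29 sites. Neither of the 2 RNAs had any of them, while 567 genes were marked there as positive hits and 509 as having a predicted site.

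Malat1 (ENSMUSG00000092341) lies on chromosome 19 at 5795690 to 5802672 (GRCm38.p6, a span of 6983 bases with 1 RefSeq transcript). Neat1 (ENSMUSG00000092274) lies beside it at 5824708 to 5845480 (20773 bases, 2 RefSeq transcripts). The gap between them is 22035 bases and holds no RefSeq gene. Both are noncoding genes of the lincRNA class in the deposited table, and the counts are of the gene as a whole. The Neat1 isoforms were therefore not separated, and the strand setting of the counting is not given in the sources used here, so antisense reads cannot be told apart from the genes' own.

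Listed counts summed to 7409157 to 55153996 per whole-cell library and 5320421 to 20142591 per fraction library. The labelled cell type was checked by markers. Of 10 fibroblast markers 9 were listed (not Lum), with summed levels of 4313 to 6160 CPM in the inputs (counts scaled to the library's depth). Their levels were uneven. In the miR-29b inputs Vim averaged 2013, S100a4 1864 and Col1a2 635 CPM, while Thy1 averaged 12.6 and Dcn 0.270 CPM. Dcn thus lay below the leukocyte marker Cd68 (2.92 CPM there). Krt8 was the 1 listed gene of 4 epithelial markers (0 to 1.03 CPM) and Cd68 the 1 of 3 leukocyte markers (0.555 to 4.07 CPM). Muscle markers summed to 1.58 to 2.84 CPM (2 of 3 listed), Snap25 was the 1 listed of 3 neural markers (0.123 to 0.392 CPM), and 0 of 3 endothelial markers were listed.

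Malat1 and Neat1 took a far larger share of the nuclear than of the cytoplasmic inputs. Malat1 took 6.91% (Wilson 95% interval 6.90 to 6.93%) of the listed counts of the nuclear miR-29b input and 4.07% (4.06 to 4.08%) of the nuclear scrambled input. In the cytoplasmic inputs it took 0.0221% (0.0214 to 0.0228%) and 0.0213% (0.0207 to 0.0220%). These intervals cover counting error only, and there was 1 library per fraction and condition.

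Neat1 took 0.237% (Wilson 95% interval 0.234 to 0.240%) of the nuclear miR-29b input and 0.269% (0.266 to 0.272%) of the nuclear scrambled input. Its cytoplasmic shares were 0.00138% (0.00121 to 0.00156%, 250 counts) with miR-29b and 0.00215% (0.00196 to 0.00236%, 433 counts) with the scrambled mimic. As log2 ratios after TMM scaling, with a prior count of 5, nuclear over cytoplasmic Malat1 was 7.58 in the miR-29b input and 7.0 in the scrambled input, or 191-fold and 128-fold. Neat1 was 6.68 and 6.37, or 103-fold and 82.8-fold. Among 11568 genes Malat1 ranked 1 and 2 in these pairs of libraries and Neat1 ranked 3 and 4.

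In the pulldown libraries the gap between fractions was much smaller. Malat1 made up 5.34% (5.33 to 5.36%) of the nuclear and 0.366% (0.363 to 0.370%) of the cytoplasmic miR-29b pulldown, and 4.47% (4.45 to 4.48%) and 0.636% (0.630 to 0.643%) of the scrambled ones. Neat1 made up 0.221% (0.218 to 0.225%) and 0.0273% (0.0264 to 0.0282%) with miR-29b, and 0.237% (0.233 to 0.241%) and 0.0532% (0.0513 to 0.0552%) with the scrambled mimic. The nuclear shares in the pulldowns lay within or near those of the inputs, and the cytoplasmic shares lay above both inputs. The log2 ratio of nuclear to cytoplasmic was 2.90 with miR-29b and 2.06 with the scrambled mimic for Malat1, and 2.05 and 1.41 for Neat1.

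**Figure D1:**
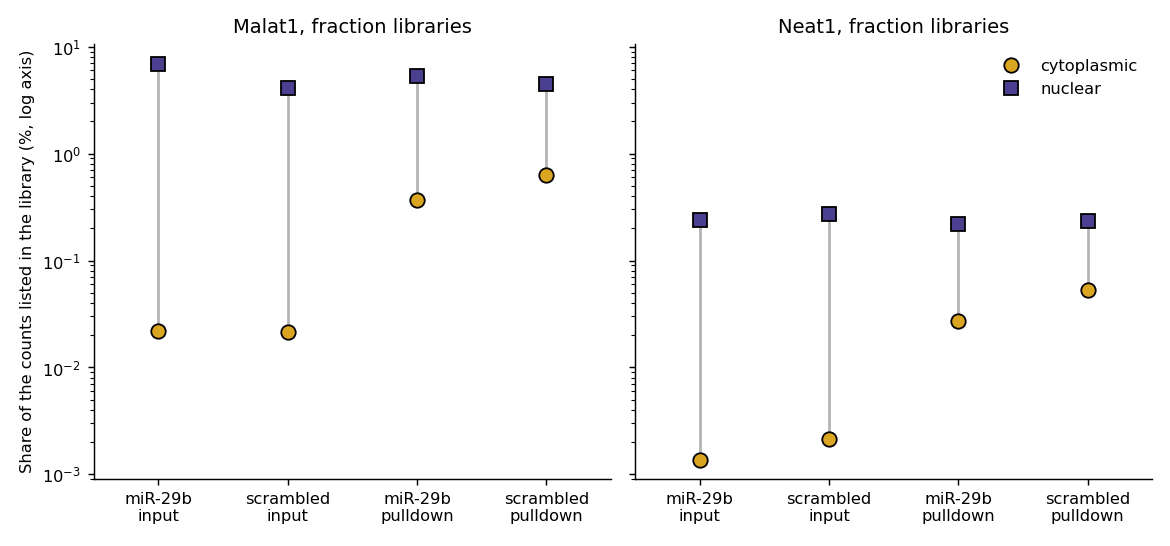
Share of the listed counts (percent, log axis) taken by Malat1 (left) and Neat1 (right) in the 8 fraction libraries, 1 point per library, with a grey line joining the cytoplasmic and nuclear library of each condition. The nuclear shares stay between 4.07 and 6.91% for Malat1 and between 0.221 and 0.269% for Neat1, while the cytoplasmic shares are higher in both pulldowns than in both inputs.

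Fitted over all 8 fraction libraries with condition as a term, so that the spread comes from how the conditions differ, Malat1 was 29.7-fold higher in the nuclear fraction (log2 4.89 ± 1.14 SE, edgeR adjusted p = 0.00499) and Neat1 17.6-fold higher (4.14 ± 1.08 SE, edgeR adjusted p = 0.00875). They ranked 2 and 10 of 11568 genes by this change. Both members passed, against 32.6% of all genes called higher in the nuclear fraction. With the 2 input conditions alone the changes were 7.28 for Malat1 and 6.54 for Neat1 (edgeR adjusted p = 1.16e-16 and 2.62e-19). That fit took the 2 mimics as replicates, and 4820 of 11568 genes were called higher in the nuclear fraction and 4749 lower. Its p-values therefore measure no spread among libraries of 1 condition. In bulk libraries, more cells holding an RNA and more of it per cell cannot be told apart.

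The fraction labels were checked with other RNAs. All 13 mitochondrial mRNAs, which are made outside the nucleus, were lower in the nuclear fraction (13 of 13 called, median log2 −4.58). Of 12 cytosolic mRNAs, 5 were lower, 1 was higher (Pkm, a glycolytic enzyme gene, at 0.72) and 6 did not pass (median −0.73), against 29.9% of all genes called lower. The lowest were Tpt1, a translationally controlled protein gene, at −3.83 and Rplp0, a ribosomal stalk protein gene, at −3.47. Of 4 other nuclear-retained RNAs tested, 3 were higher: Xist, the RNA that coats the inactive X chromosome (4.64 ± 0.73 SE, edgeR adjusted p = 0.000636), Airn, the imprinted antisense RNA at Igf2r (3.89 ± 0.45 SE, edgeR adjusted p = 0.000164), and Pvt1 (1.15 ± 0.25 SE, edgeR adjusted p = 0.00367). Tug1, the fourth, was at 0.46 ± 0.36 SE and did not pass (edgeR adjusted p = 0.289). The median of all genes was 0.06, and 0.80 when libraries were scaled by listed counts alone, which turned the split of genes from 3774 higher and 3464 lower to 6150 and 1710.

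In the libraries called whole-cell here, both RNAs stood far above input in the pulldown of the scrambled control mimic. No library came from a pulldown without a mimic, and how these RNAs came into the pulldown was not tested. Malat1 took 0.00916 to 0.0248% of listed counts in these scrambled inputs, against 0.0213% in the cytoplasmic and 4.07% in the nuclear scrambled input. Only replicate 4 lay above the cytoplasmic share. Whether these inputs hold the nuclear RNA in full was not tested. Malat1 stood at 93.1, 116.7, 101.8 and 289.0 CPM in replicates 1 to 4 of the scrambled input and at 6419, 3259, 3496 and 3538 CPM in the scrambled pulldown. All 4 pulldown libraries lay far above all 4 inputs, with replicate 1 the highest. The change was 27.8-fold (log2 4.80 ± 0.61 SE, n = 4 per group, edgeR adjusted p = 3.77e-05).

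Neat1 stood at 53.6, 49.5, 53.9 and 19.9 CPM in the scrambled input and at 528, 617.8, 607.7 and 613.5 CPM in the scrambled pulldown. The groups again did not overlap, and the pulldown libraries lay close together. How many of all genes separate their groups in this way, here or in the comparisons below, was not counted. Neat1 was 13.4-fold higher (log2 3.74 ± 0.28 SE, n = 4 per group, edgeR adjusted p = 1.01e-06). Malat1 ranked 21 and Neat1 ranked 46 of 12915 genes by this log2 change. Both members were called higher, against 18.5% of all genes.

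Both RNAs also stood above input in the miR-29b pulldown, at lower levels than with the scrambled mimic. Malat1 held 72.5, 86.7, 82.2 and 367.5 CPM in replicates 1 to 4 of the miR-29b input and 1752, 897, 1319 and 707 CPM in its pulldown. The lowest pulldown library was above the highest input, replicate 4, by less than 2-fold, and the other inputs lay far below. The change was 7.68-fold (log2 2.94 ± 0.56 SE, n = 4 per group, edgeR adjusted p = 0.000405). It was 3.89 on the log2 scale without replicate 4 of the input. Replicates 1 to 3 averaged 80.5 CPM in the input and 1323 CPM in the pulldown, so the pooled change describes neither set alone.

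Neat1 held 38.8, 41.6, 41.9 and 57.5 CPM in the miR-29b input and 321.6, 300.5, 307.8 and 241.6 CPM in its pulldown. No pulldown library reached down to an input. The change was 6.51-fold (log2 2.70 ± 0.27 SE, n = 4 per group, edgeR adjusted p = 1.41e-06). Both members were called higher, against 28.4% of genes, and ranked 299 (Malat1) and 443 (Neat1) of 12915.

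**Figure D2:**
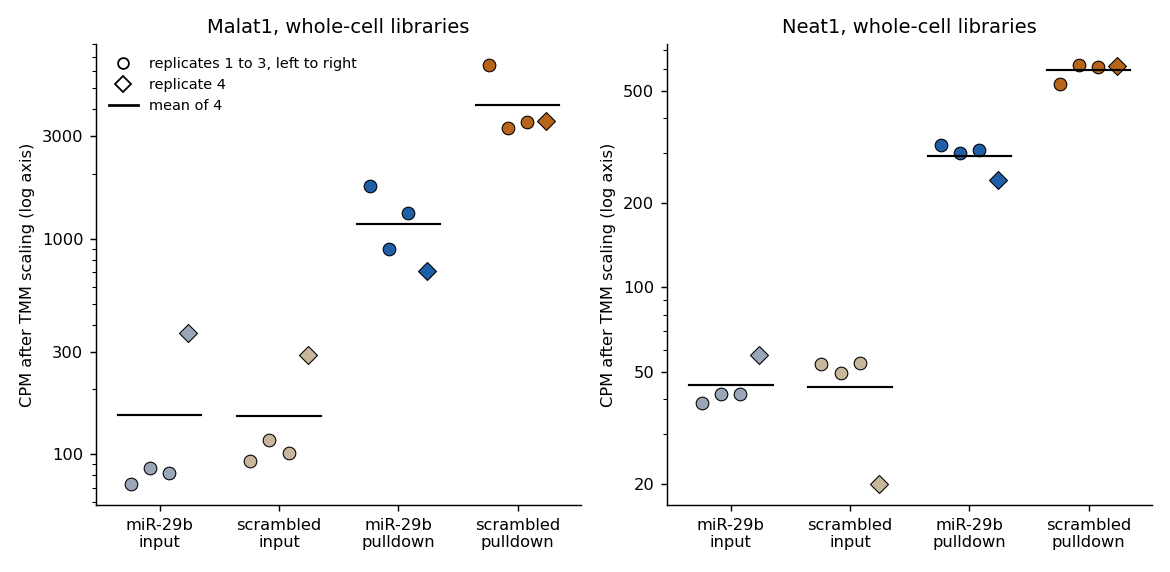
Level of Malat1 (left) and Neat1 (right) in the 16 whole-cell libraries, as CPM after TMM scaling on a log axis, with circles for replicates 1 to 3, diamonds for replicate 4 and bars for the mean of 4. Both RNAs are lowest in the inputs, higher in the miR-29b pulldown and highest in the scrambled pulldown, and replicate 4 stands apart in the inputs.

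Per kilobase of gene span, Malat1 had the higher mean value in every group. In the inputs Malat1 averaged 21.8 ± 20.6 CPM per kb (SD, n = 4) with miR-29b and 21.5 ± 13.3 with the scrambled mimic, and Neat1 averaged 2.16 ± 0.409 and 2.13 ± 0.786. In the pulldowns Malat1 averaged 167 ± 66.6 with miR-29b and 598 ± 215 with the scrambled mimic, and Neat1 averaged 14.1 ± 1.70 and 28.5 ± 2.06. The span is that of the whole gene, so the level of Neat1 depends on how much of it is the short isoform. The order of the 2 RNAs in molecules may therefore differ from their order on this scale.

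Between the pulldowns, both RNAs stood at a higher level with the scrambled mimic than with miR-29b. CPM are shares of a library, and the amount of RNA captured was not measured here. Malat1 averaged 1169 ± 465 CPM (SD, n = 4) with miR-29b and 4178 ± 1499 CPM with the scrambled mimic. Its level with miR-29b was lower by 3.57-fold (log2 −1.84 ± 0.54 SE, with an edgeR adjusted p of 0.0107). Neat1 averaged 293 ± 35.3 and 592 ± 42.7 CPM, a difference of 2.02-fold (log2 −1.01 ± 0.25 SE, with an edgeR adjusted p of 0.00364). For both RNAs the highest miR-29b library lay below the lowest scrambled one on this scale. As shares of the authors' totals the Neat1 libraries overlapped, with 0.0281% in miR-29b replicate 2 and 0.0256% in scrambled replicate 1. Of all genes, 20.9% were called lower in this comparison. Neat1 did not pass when libraries were scaled by the authors' totals (log2 −0.72, edgeR adjusted p = 0.0685).

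The comparison that corrects each pulldown for its own input gave less certain results. The pulldown over input ratio of Neat1 was 2.05-fold lower with miR-29b (log2 −1.04 ± 0.35 SE, n = 4 per group, edgeR adjusted p = 0.0402), and that of Malat1 was at −1.86 ± 0.74 SE, which did not pass (edgeR adjusted p = 0.0788). The background was 9.21% of genes called lower, and the median of all genes was −0.10. It uses the same libraries as the comparisons above and is called input-corrected below. The 6 reported miR-29 targets kept as a reference moved the other way, with 6 of 6 called higher, against 17% of all genes. Their median log2 change was 2.81, and the list was chosen with earlier results of these data known. Among them Mcl1, an anti-apoptotic gene, was at 4.19 ± 0.56 SE and Sparc, a matrix glycoprotein gene, at 2.35 ± 0.21 SE.

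Both values moved with single libraries. Malat1 was at −0.86 when the fourth miR-29b input was left out (edgeR adjusted p = 0.268) and at −2.40 when the fourth scrambled input was, where it passed (edgeR adjusted p = 0.0245). Neat1 lost its call in 10 of the 16 fits that each left out 1 library, with an adjusted p of at most 0.0712 in edgeR and log2 changes of −1.12 to −0.78 over the 16. Those 10 libraries were replicates 2, 3 and 4 of the miR-29b input and of both pulldowns, and replicate 2 of the scrambled input. With replicates 1 to 3 alone both passed, at −1.36 for Malat1 (edgeR adjusted p = 0.0126) and −0.54 for Neat1 (edgeR adjusted p = 0.00671).

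Neither RNA passed between the inputs of the 2 mimics in the fit of all libraries. The log2 change was 0.02 ± 0.52 SE for Malat1 and 0.02 ± 0.25 SE for Neat1 (edgeR adjusted p = 0.9999 for both), and 0.0542% of genes (7 of 12915, with 604 at an unadjusted p under 0.05) passed. The means were 152 ± 144 and 150 ± 93.1 CPM for Malat1, and 45.0 ± 8.50 and 44.2 ± 16.3 CPM for Neat1 (SD, n = 4), with miR-29b first. Without the fourth miR-29b input the change of Malat1 was −0.96, and without the fourth scrambled input it was 0.59 (edgeR adjusted p = 0.574 and 0.898). That of Neat1 ranged from −0.20 to 0.14 without single libraries. The SDs came mainly from replicate 4. Its Malat1 level was 4.57-fold the mean of replicates 1 to 3 in the miR-29b input and 2.78-fold in the scrambled input, and its Neat1 level was 1.41-fold and 0.381-fold.

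Column names in the authors' deposited table separate a lysed from an intact set. The lysed score there equals the mean over replicates 1 to 3 for all 13534 genes within 1e-06, which leaves replicate 4 as the intact set. The input levels that follow are those of replicates 1 to 3 alone. Malat1 averaged 80.5 ± 7.26 CPM (SD, n = 3) with miR-29b and 103.9 ± 11.9 with the scrambled mimic. Neat1 averaged 40.8 ± 1.69 and 52.3 ± 2.44 CPM. Neither difference passed (edgeR adjusted p = 0.58 for Malat1 and 0.0803 for Neat1). Of 12834 genes, 82 were called higher and 95 lower with miR-29b in this fit.

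The share of Malat1 in most whole-cell inputs was below that of either fraction. It was 0.00715 to 0.0113% of listed counts in replicates 1 to 3 and up to 0.0295% in replicate 4, against 0.0213 and 0.0221% in the cytoplasmic and 4.07 and 6.91% in the nuclear inputs. These shares involve no scaling between libraries. As shares of the authors' totals, Malat1 was at 0.00551 to 0.00848% in input replicates 1 to 3. It was at 0.0168 and 0.0174% in the cytoplasmic inputs. The cause of the gap was not tested. Listed counts were 37.4 and 43.4% of the authors' library totals in the nuclear inputs, 78.7 and 78.9% in the cytoplasmic inputs and 74.2 to 80.6% in the whole-cell inputs.

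In the fractions the pulldown stood far above its input in the cytoplasmic libraries and near it in the nuclear ones. Cytoplasmic Malat1 was at 259 CPM in the input and 5734 CPM in the pulldown with miR-29b (22.1-fold, log2 4.47) and at 240 and 8728 CPM with the scrambled mimic (36.3-fold, 5.18). Cytoplasmic Neat1 was at 16.1 and 427 CPM with miR-29b (25.8-fold, 4.69) and at 24.2 and 730 CPM with the scrambled mimic (29.7-fold, 4.89). Nuclear Malat1 was at 49431 and 42679 CPM with miR-29b (log2 −0.21) and at 30800 and 36516 CPM with the scrambled mimic (0.25), input first. Nuclear Neat1 was at 1698 and 1767 CPM with miR-29b (0.06, or −0.10 when scaled by listed counts alone) and at 2039 and 1935 CPM with the scrambled mimic (−0.08).

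A test of this difference, added after the data were seen, fitted pulldown, fraction and their interaction over the 8 libraries, with mimic as an additive term. With 1 library per cell of the design, the spread in this fit comes from how the 2 mimics differ, as if they were replicates. The pulldown over input ratio of Neat1 was 28.5-fold higher in the cytoplasmic than in the nuclear fraction (log2 4.83 ± 0.38 SE, edgeR adjusted p = 0.0476), and that of Malat1 was at 4.88 ± 0.54 SE (29.5-fold, edgeR adjusted p = 0.127, not passed). They ranked 8 and 6 of 11568 genes, and 0.0173% of genes passed (2, of which the other was 4930546H06Rik; 1261 had an unadjusted p under 0.05 and DESeq2 called 166). The call of Neat1 ended in 6 of 8 fits without 1 library (log2 4.62 to 5.13, edgeR adjusted p up to 0.996) and was kept only without either of the cytoplasmic pulldowns.

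Between mimics within a fraction, the direction seen in the whole-cell libraries stood in the cytoplasmic pulldowns. Cytoplasmic Malat1 was 1.52-fold lower with miR-29b (log2 −0.61) and cytoplasmic Neat1 1.71-fold lower (−0.77). Listed counts were 78.4% of the authors' total in the cytoplasmic miR-29b pulldown and 48.7% in the scrambled one. As shares of those totals the gaps were smaller: 0.287 against 0.310% for Malat1 and 0.0214 against 0.0259% for Neat1, miR-29b first. In the nuclear pulldowns the log2 ratios were 0.22 and −0.13. In the inputs they were 0.11 (cytoplasmic) and 0.68 (nuclear) for Malat1 and −0.57 and −0.26 for Neat1. With 1 library each these ratios have no replicate check.

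**Figure D3:**
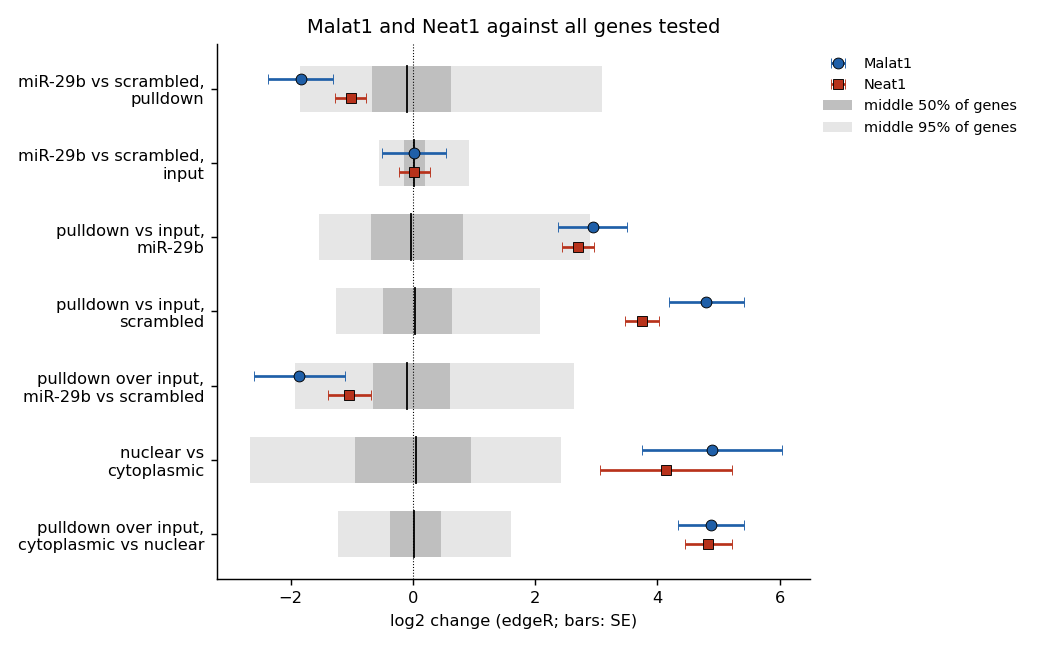
Log2 change of Malat1 (blue circles) and Neat1 (red squares) with SE in 7 comparisons, over grey bands for the middle 50% and 95% of all genes tested and a black line for their median. Both RNAs lie beyond the upper end of the wide band between scrambled pulldown and input and between the fractions. They also do so for pulldown over input, cytoplasmic against nuclear, and lie inside the narrow band between the inputs.

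Many other RNAs that were higher in the nuclear fraction also stood above input in the scrambled pulldown. Apart from Malat1 and Neat1, 643 genes were called and at least 4-fold nuclear, and 433 of these (67.3%) were higher in the scrambled pulldown than in its input and 1 was lower, against 18.5% higher over the 11535 genes in both tables. Of 931 genes at least 4-fold cytoplasmic, 34 (3.65%) were higher and 296 (31.8%) lower. In the miR-29b pulldown 47.3% of the nuclear genes were higher against 30.0% of all. In the input-corrected comparison of mimics 7.0% of the nuclear genes were higher and 23.3% lower, against 18.7% and 9.83% of all. This grouping was added after the data were seen, as a description.

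**Figure D4:**
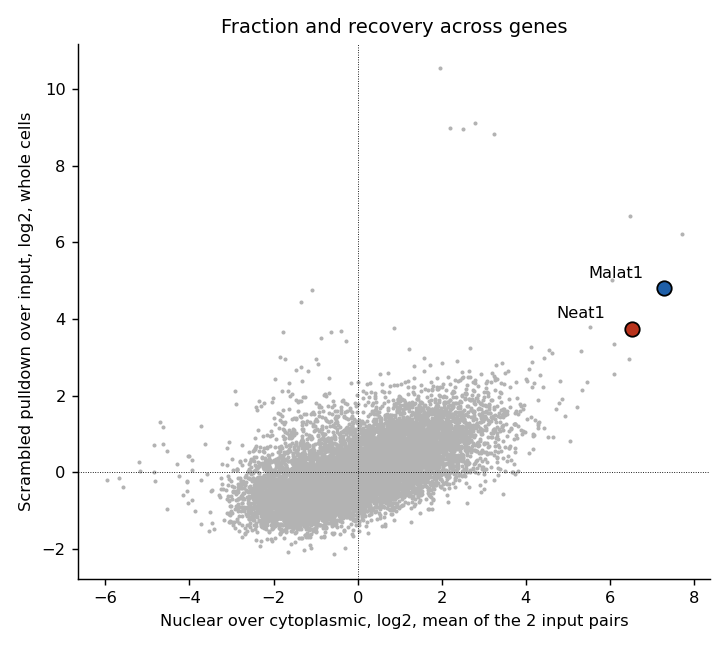
Each grey point is 1 of 11535 genes. The horizontal axis is the mean log2 ratio of nuclear to cytoplasmic level over the 2 input pairs. The vertical axis is the log2 change from input to scrambled pulldown in the whole-cell libraries. Malat1 (7.29, 4.80) and Neat1 (6.53, 3.74) sit at the far right and high on the vertical axis. They rank 2 and 3 on the horizontal axis.

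The gene lists below are read against all genes tested, of which 18.5% were higher and 17.4% lower in the scrambled pulldown, 28.4% and 23.2% in the miR-29b pulldown, 17% and 9.21% in the input-corrected comparison, and 32.6% and 29.9% in the nuclear fraction. The other nuclear-retained RNAs did not follow 1 pattern. With the scrambled mimic Xist (log2 3.35 ± 1.23 SE, edgeR adjusted p = 0.0436) and Airn (1.65 ± 0.28 SE, edgeR adjusted p = 0.000352) rose over input, 2 of 4 tested, and Tug1 and Pvt1 were at 0.36 and −0.30. With miR-29b the 1 that rose was Tug1 (3.37 ± 0.58 SE, edgeR adjusted p = 0.000161). Tug1 was also the 1 called in the input-corrected comparison (3.01 ± 0.76 SE, edgeR adjusted p = 0.00817), where Malat1 and Neat1 had negative values. Over the lincRNA class of the table without the 2 members, 43 of 214 tested were higher and 7 lower in the scrambled pulldown (median 0.54, all genes 0.03), near the 18.5% of all genes higher, and 18 were higher and 8 lower in the input-corrected comparison (median −0.32), against 17% and 9.21% of all genes.

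Most messenger RNAs for the proteins of the 2 nuclear bodies were called higher in the nuclear fraction. The amount of RNA in each fraction was not measured, so this compares shares of libraries and not amounts per cell. Of 29 paraspeckle protein genes, 19 were higher in the nuclear fraction and 3 lower (median 1.36), with Akap8l at 4.11 and Ewsr1, an RNA-binding protein gene, at 2.19. In the scrambled pulldown 12 of 29 were higher and 4 lower (median 0.37), and with miR-29b 14 and 4 (0.54). In the input-corrected comparison 3 were higher and 5 lower. Smarca4, a chromatin remodelling ATPase gene, was at −0.76 ± 0.16 SE, Ewsr1 at −1.44 ± 0.32 SE and Rbm4b, a splicing regulator gene, at 1.31 ± 0.31 SE (edgeR adjusted p = 0.00280, 0.00365 and 0.00491).

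Of 24 nuclear speckle and splicing genes, 19 were higher in the nuclear fraction and 1 lower (median 1.34). In the scrambled pulldown 13 rose and 1 fell (median 0.84), and with miR-29b 14 rose and 7 fell (0.51). In the input-corrected comparison 5 were higher and 5 lower (median −0.37). Acin1, a splicing-associated factor gene, was at −1.88 ± 0.16 SE, Srsf4 at −1.63 ± 0.31 SE and Tra2b at 1.92 ± 0.28 SE (edgeR adjusted p at most 0.00114). Srsf4 and Tra2b encode splicing regulators with arginine-serine domains.

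Genes for RNA end processing and decay, which include RNase P subunits, showed no common direction in the scrambled pulldown (7 of 22 higher, 5 lower). With miR-29b 9 rose and 1 fell, and in the input-corrected comparison 5 were higher and 2 lower. There Pop4, an RNase P protein gene, was at 2.55 ± 0.26 SE and Exosc3, an exosome subunit gene, at 1.84 ± 0.29 SE. Rpph1, the RNA component of RNase P, was lower in the nuclear fraction (−2.92 ± 0.38 SE, edgeR adjusted p = 0.000261). Of the 21 genes of this list tested between fractions, 9 were called higher in the nuclear fraction and 5 lower.

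Of 7 genes tested that neighbour Malat1 and Neat1 on chromosome 19, 1 was higher in the scrambled pulldown (Ehbp1l1, 0.52 ± 0.16 SE, edgeR adjusted p = 0.0208) and 0 were lower, a share near the 18.5% of all genes. With miR-29b 0 were higher and 1 lower, Ltbp3, a latent TGF-beta binding protein gene, at −1.09. Ltbp3 was also the 1 called in the input-corrected comparison (−1.27 ± 0.28 SE, edgeR adjusted p = 0.00329). Of the 6 that were tested between fractions, 3 were called higher in the nuclear fraction and 1 lower. Of the 13 mitochondrial mRNAs, 0 passed with the scrambled mimic, 1 was higher with miR-29b and 0 passed in the input-corrected comparison. Of 12 cytosolic mRNAs 5 fell and 1 rose with the scrambled mimic, 5 fell and 0 rose with miR-29b, and 1 was called each way in the input-corrected comparison. Among 8 snoRNA host genes Snhg6 fell with the scrambled mimic (−1.06 ± 0.33 SE, edgeR adjusted p = 0.0197) and rose with miR-29b (2.37, edgeR adjusted p = 3.4e-05).

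The balance of the 2 RNAs is given by their count ratio, which needs no scaling between libraries and was not tested. Counts of Malat1 over Neat1 were 1.87, 2.08, 1.96 and 6.39 in replicates 1 to 4 of the miR-29b input and 1.74, 2.36, 1.89 and 14.5 in the scrambled input. In the pulldowns they were 5.45, 2.99, 4.28 and 2.93 with miR-29b and 12.2, 5.27, 5.75 and 5.77 with the scrambled mimic. With either mimic the pulldowns lay above replicates 1 to 3 of their inputs and below replicate 4, so that within replicate 4 the ratio was lower in the pulldown. The mean log2 ratio was 1.40 ± 0.85 (SD, n = 4) and 1.70 ± 1.45 in the inputs and 1.92 ± 0.43 and 2.76 ± 0.56 in the pulldowns, with miR-29b first. With each mimic, these input and pulldown means differed by less than the SD of the input, which replicate 4 widened. Over replicates 1 to 3 the inputs were at 0.98 ± 0.08 and 0.98 ± 0.23 (SD, n = 3). The pulldowns of replicates 1 to 3 were at 2.04 ± 0.44 and 2.84 ± 0.66. In that set the means differed by more than the SD of either group.

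In the nuclear libraries the count ratio was 29.1 and 15.1 in the inputs and 24.1 and 18.9 in the pulldowns, with miR-29b first. In the cytoplasmic libraries it was 16.1 and 9.93 in the inputs and 13.4 and 12.0 in the pulldowns. All 8 fraction libraries held relatively more Malat1 than any of the whole-cell libraries except replicate 4 of the scrambled input (14.5) and replicate 1 of the scrambled pulldown (12.2), which lay within the cytoplasmic range.

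The genes most like each RNA across the 16 whole-cell libraries were taken by Pearson's r of log2 CPM over 8525 genes. These values are descriptions: inputs and pulldowns form separate clusters, and all genes share the libraries and their depth. For Malat1 they were Dync2h1, a cilium motor gene (0.982), Prpf4b, a splicing kinase gene (0.973), Herc1 (0.968), Chd8, a chromatin remodeller gene (0.966), and Lyst, a lysosomal trafficking gene (0.966). For Neat1 they were Nfkbia, the gene of the NF-kappa-B inhibitor (0.984), Mysm1, a histone deubiquitinase gene (0.983), Xrn1, the cytoplasmic exonuclease gene (0.971), Zzef1 (0.968) and Slc38a2, an amino acid transporter gene (0.967). Malat1 and Neat1 themselves correlated at 0.921, which ranked Neat1 67 for Malat1 and Malat1 104 for Neat1. Being chosen for following RNAs that were higher in the pulldowns, the 10 genes had log2 changes of 0.89 (Slc38a2) to 2.45 (Herc1) from scrambled input to pulldown, which is a description only. Between the fractions 9 of them were higher in the nuclear one (1.11 to 2.77), against 32.6% of all genes, and Nfkbia was lower (−1.36). The choice bears on this too. Of genes at least 4-fold nuclear 67.3% were higher in the scrambled pulldown, against 18.5% of all, so all genes are not a like background here.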

How the data were processed

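Per the labels' protocols, RNA was extracted with a mirVana kit and libraries were made with the TotalScript kit. STAR 2.3.0 and mm10 are named in the submitters' processing notes, while the counting tool is not given in the sources used here, nor is its annotation. Per gene and library, the deposited values are whole-number counts. The authors' CPM equal the count plus 1 over a library total above the listed sum, and supplied those totals. The authors' deposited score was used only to match replicates 1 to 3 to their lysed mean. The nuclear and cytoplasmic tables were identical (0 bytes differed), so both fractions were read from 1 table.

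Of 14052 lines, 518 repeats of 365 genes were left out. The count tests used edgeR 4.0.16 (R 4.3.3, filterByExpr, TMM, quasi-likelihood, two-sided, Benjamini-Hochberg over all 12915 or 11568 genes tested, threshold 0.05). The whole-cell model had 4 group means, and the fraction model had fraction and condition over genes with at least 20 counts. Common dispersions were 0.106 and 0.0741. Alternatives were other scalings, DESeq2 1.42.0, other filters, a replicate block, subsets of libraries and leaving out each library. Of the tested genes, 12895 had a symbol and 11758 matched the RefSeq table.

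Named genes were both members, the 5 genes most correlated with each (mean at least 5 CPM), and up to 3 members of a list with the smallest p between mimics or fractions; a few others named beside a count were chosen after their values were seen. Some genes that the rule names are left out of the text. Members, lists and tests were chosen with earlier results of these data known. Same-numbered libraries deviated together between inputs (correlations 0.506 to 0.717) but not in every pair of groups (lowest −0.096), so they were not taken as pairs.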

Additional observations from a re-analysis of the deposited data

Results flagged for a closer look

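In 6 cases a library stood apart from the other 3 of its group by a gap over Dixon's critical share of the group's range, a limit that chance passes in about 1 of 20 groups. Replicate 4 was the highest for Malat1 in the miR-29b input (367.503 CPM, gap 0.952 of the range) and in the scrambled input (289.049 CPM, 0.880). Replicate 4 was also the highest for Neat1 in the miR-29b input (57.5318 CPM, 0.838) but the lowest in the scrambled input (19.9259 CPM, 0.871). Replicate 1 of the scrambled pulldown, the library with the fewest listed counts (7409157), was the highest for Malat1 (6418.91 CPM, 0.912) and the lowest for Neat1 (527.989 CPM, 0.887).

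Neat1 was called in its pulldown over input ratio between mimics (log2 −1.03893, edgeR adjusted p = 0.0402). It was also called between fractions (log2 4.83187, edgeR adjusted p = 0.0476, cytoplasmic over nuclear), in a fit that took the 2 mimics as replicates. Neither call was stable. Leaving out 1 library ended the call between mimics in 10 of 16 fits and that between fractions in 6 of 8.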

How the results depend on the processing

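No alternative reversed a called result for either RNA. Both stayed higher in each pulldown than in its input (Malat1 2.67 to 4.06 and Neat1 2.44 to 3.01 on the log2 scale with miR-29b, 4.46 to 5.42 and 3.49 to 3.86 with the scrambled mimic) and in the nuclear fraction (3.74 to 7.28 and 3.01 to 6.54), and passed under every scaling, tool, filter and subset tried. Malat1 stayed lower in the miR-29b than in the scrambled pulldown (−2.16 to −1.46, edgeR or DESeq2 adjusted p at most 0.0449).

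The input-corrected comparison of mimics was less stable. Malat1 passed there with upper-quartile factors (−2.16, edgeR adjusted p = 0.0433), DESeq2 (−1.87, adjusted p = 0.0419) and replicates 1 to 3 (−1.36), and spanned −2.40 to −0.86 when single libraries were left out. Neat1 missed with the authors' totals (−0.70), replicates 1, 2 and 4 (−1.21) and a set of 10 libraries (−0.97, edgeR adjusted p = 0.299), which leaves out every replicate 3, the fourth miR-29b input and the fourth scrambled pulldown. Over single libraries left out it spanned −1.12 to −0.78. Between pulldowns Neat1 missed with the authors' totals (−0.72) and the 10 libraries (−0.99, edgeR adjusted p = 0.0805). With the replicate block the input-corrected changes were −1.69 for Malat1 and −1.09 for Neat1 (edgeR adjusted p = 0.0568 and 0.0317); the block changed no call of either RNA.

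For cytoplasmic against nuclear recovery Neat1 missed with upper-quartile factors (4.86, 1 gene called) and the stricter filter of 2 CPM in 4 libraries (4.82, 0 genes called by edgeR), and DESeq2 passed Malat1 too (4.97, 166 genes called). Without single libraries the values were 4.37 to 5.37 for Malat1 and 4.62 to 5.13 for Neat1, with 0 to 3760 genes called. Pulldown over input scaled by listed counts alone was 4.05 (miR-29b) and 4.89 (scrambled) for cytoplasmic Malat1, 4.27 and 4.60 for cytoplasmic Neat1, −0.37 and 0.13 for nuclear Malat1, and −0.10 and −0.19 for nuclear Neat1.

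Between inputs edgeR called 7 genes. The count was 1 with the authors' totals, 44 by DESeq2, 11 with the replicate block, 177 with replicates 1 to 3 and 1 to 12 without single libraries. It was 0 with only the groups compared, with replicates 1, 2 and 4, and with the 10 libraries. Genes called in the input-corrected comparison numbered 3382, and 5584 with replicates 1 to 3, 1237 with replicates 1, 2 and 4, and 1453 with the 10 libraries. Scrambled pulldown against input went from 4638 to 2090 with replicates 1, 2 and 4 and 1151 with the 10 libraries, and pulldown against pulldown from 5866 to 3041 with the 10. Scaling moved the median of all genes between pulldowns from −0.10 to −0.40 (upper quartile) or 0.23 (authors' totals), and the split of 3163 higher and 2703 lower to 2462 and 4333, or 3792 and 1094. The causes were not tested. The fractions had 1 library per condition, and intervals on their shares cover counting error only.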
